A study of Mus musculus with 4 samples.

Results

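The region described here is the lower-coordinate flank of a 4C-seq contact profile named by the gene Tnfaip3. It was chosen by position alone. It holds the 900 positions, 1000 bp apart, that lie more than 100 kb below the middle of the profile, out of 2001 positions in the profile and 4002 in the 2 profiles of the series. In mm9 coordinates on chromosome 10 the flank runs from 18207921 to 19106921, and the middle is at 19207921, so its members lie more than 100 kb and up to 1000 kb from the middle. In 4C-seq, chromatin is cross-linked, cut and ligated, and the fragments joined to 1 chosen fragment, the viewpoint, are amplified by inverse PCR and sequenced. The series asked, per its design text, whether macrophage enhancers premarked in embryonic stem cells touch their promoters.

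The profile was measured in 2 libraries, 1 per group. The first is from mouse embryonic stem cells (ESC) of the 46c line, grown without feeders and with LIF. The second carries the title macrophage + KLA, while its source is Raw 264.7, a mouse macrophage-like cell line written RAW 264.7 below. The treatment text mentions KLA in connection with peritoneal macrophages, and the labels state no KLA time for the RAW 264.7 library. Both were fixed in 1% formaldehyde and cut first with HindII, with DpnII as the second enzyme, per the labels. RAW 264.7 is a single transformed line and no untreated library of it was analysed here, so cell type and KLA cannot be told apart. With 1 library per group there is no replicate error. Read depth is unknown, and no test was made. Every difference below is therefore a difference between 2 libraries.

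Tnfaip3 encodes A20, a ubiquitin-editing enzyme that restrains NF-κB signalling and is itself induced by inflammatory stimuli in macrophages. In mammalian chromosomes contact with a viewpoint generally falls steeply with distance and then levels off into a low and uneven background, on which more distant contacts appear as local rises. A flank distal to the viewpoint is where that background is read. In the RefSeq annotation of GRCm38.p6, the protein-coding genes next to Tnfaip3 on the side of lower coordinates are, in order, Perp, Gm4922, Arfgef3, Hebp2 and Nhsl1, and those on the other side begin with Olig3, Ifngr1 and Il22ra2. That annotation is on another build than the profiles. It gives the order of the genes only, and no position below is assigned to a gene, promoter or enhancer. The viewpoint's own position is likewise not stated in the data or labels. Distances are therefore from the middle of the profile and are not known to be distances from the viewpoint. The Tnfaip3 gene itself could not be placed in mm9 and may lie in this flank.

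Values are contact signal in windows of 10 kb unless another width is given, each centred on its position. The deposited signal reaches exactly 1 at the highest window of each library. For comparison each library was divided by its own median at 500 to 900 kb from the middle, both sides pooled, here called the far median. In deposited units the far median was 0.136 in ESC and 0.133 in RAW 264.7. A value of 1 thus means the typical contact far from the middle. Of the flank's positions 401 are themselves within 500 to 900 kb, so their typical level is near 1 by construction. Neighbouring windows share 9 of their 10 kb, and the flank holds 90 windows that do not overlap. The 5 positions at the outer end have no 10 kb value, which leaves 895.

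Contact in the flank was near the far median in both libraries and did not decline along it with distance from the middle. The median was 0.978 times the far median in ESC and 1.00 times in RAW 264.7. The central 50% of positions lay between 0.803 and 1.15 in ESC and between 0.836 and 1.16 in RAW 264.7. For comparison, the median within 100 kb of the middle was 1.24 in ESC and 1.27 in RAW 264.7. Regressed on log2 distance over the flank, log2 contact had a slope of 0.0081 in ESC and -0.021 in RAW 264.7. The sign of these slopes turned with the settings, to -0.0061 in ESC over positions up to 500 kb and to 0.0088 in RAW 264.7 in windows of 5 kb. Over the higher-coordinate flank at the same distances the slope was -0.043 in ESC and -0.104 in RAW 264.7. At the boundary that defines the flank there was no step, with 0.654 in ESC and 0.664 in RAW 264.7 at the first position inside, and 0.731 and 0.737 at 100 kb, the first outside.

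In bins of 100 kb the level alternated around the far median rather than following distance from the middle. In the bin nearest to the middle, up to 200 kb, the median was 0.937 in ESC and 0.971 in RAW 264.7. At 201 to 300 kb it was higher, at 1.11 in ESC and 1.13 in RAW 264.7. At 301 to 400 kb it was 0.906 in ESC and 0.990 in RAW 264.7. The bin at 201 to 300 kb was the highest of the 9 in both libraries, and it lay farther from the middle than the bin before it. With 49 kb windows the highest RAW 264.7 bin was instead that at 601 to 700 kb, with 1.16 against 1.13. At 401 to 500 kb the medians were 1.06 and 1.03. At 501 to 600 kb ESC reached its lowest bin, 0.835, while RAW 264.7 had 0.930. With windows of 5 and 49 kb the lowest ESC bin was instead that at 301 to 400 kb, with 0.810 and 0.889. At 601 to 700 kb ESC had 0.989 and RAW 264.7 had 1.10. In these last 2 bins RAW 264.7 was above ESC by 1.11 times each, the largest ratios of medians among the 9 bins. Beyond 700 kb the order turned. The medians were 1.03 in ESC and 1.01 in RAW 264.7 at 701 to 800 kb, 1.01 and 0.956 at 801 to 900 kb, and 0.933 and 0.914 at 901 to 1000 kb. These differences between bins are small beside the range inside each bin, which in ESC at 401 to 500 kb ran from 0.273 to 1.66.

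**Figure D1:**
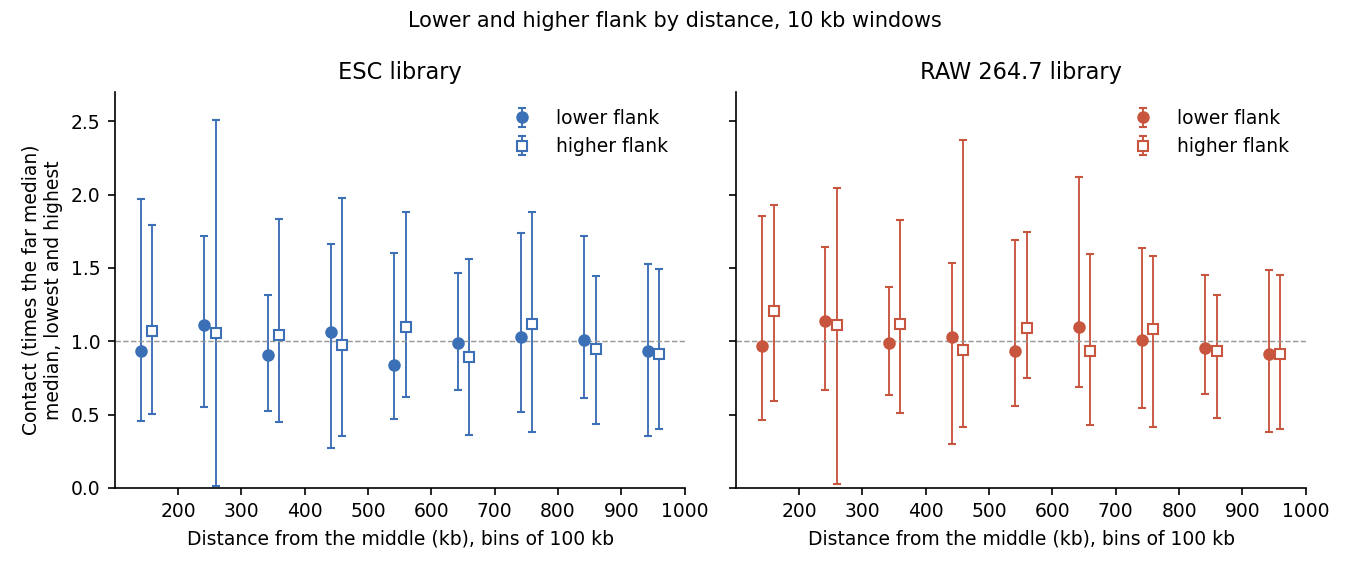
Contact over the far median in bins of 100 kb of distance from the middle, for the ESC library (left) and the RAW 264.7 library (right). Points are medians over positions and bars run from the lowest to the highest position, which is a range along 1 library and no replicate error; lower-flank medians (filled) stay between 0.835 and 1.13 in both panels and fall on either side of the higher-flank medians (open).

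The lower flank was not uniformly weaker or stronger than the higher flank at the same distance. Its bin median was below that of the higher flank in 4 of 9 bins in ESC and in 5 of 9 in RAW 264.7. In the bin nearest to the middle it was 0.874 times the higher flank in ESC and 0.804 times in RAW 264.7. The lowest ratio in ESC was 0.759, at 501 to 600 kb, where RAW 264.7 had 0.856. The highest was 1.10 in ESC and 1.18 in RAW 264.7, both in the bin from 601 to 700 kb. In each of the bins up to 500 kb, the ratio lay on the same side of 1 in both libraries. In windows of 5 kb this did not hold at 401 to 500 kb, where the RAW 264.7 ratio was 0.979. At 901 to 1000 kb the ratios were close to 1, at 1.02 in ESC and 0.999 in RAW 264.7, and their side of 1 turned with the window width.

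Local rises were present in the flank in both libraries, and most were modest. In the whole profile 7.75% of positions in ESC and 7.24% in RAW 264.7 were at 1.5 times the far median or more, and in the flank 39 of 895 positions in ESC (4.36%) and 33 of 895 in RAW 264.7 (3.69%) were. The higher flank had 59 of 895 and 58 of 895. At 2 times or more, the whole profile had 0.654% of its positions in ESC and 1.21% in RAW 264.7, and the flank had 0 and 3 positions. Taken as local maxima at least 20 kb apart, the flank held 8 rises of 1.5 times or more in each library, against 12 in ESC and 11 in RAW 264.7 in the higher flank. The flank thus held fewer rises than the other side of the same profile. Of the 8 in each library, 3 had a counterpart within 10 kb among the listed maxima of the other library. This count depends on the rules. At the ESC rise at 18725921, RAW 264.7 also had a local maximum, of 1.51, dropped for lying within 20 kb of a higher one. At the RAW 264.7 rise at 18785921, ESC had 1.47, just under the threshold.

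The rise nearest to the middle was shared and was the highest of the flank in ESC. At 19086921, in the bin nearest to the middle, contact was 1.97 in ESC and 1.85 in RAW 264.7. It stayed at 1.5 times or more in 13 of 47 window widths with a value in ESC and in 12 of 47 in RAW 264.7. Windows of 49 kb there had 1.00 in ESC and 1.07 in RAW 264.7, so the rise was local. The 2 kb window at its centre held no fragment end, which leaves that position without a value at the narrowest width. The other shared rises were at 18486921, 721 kb below the middle, with 1.73 in ESC and 1.64 in RAW 264.7, and at 18612921, 595 kb below it, with 1.60 and 1.69. At these 3 places the libraries differed by less than 1.1 times.

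The other 4 of the 6 highest rises in ESC were lower in RAW 264.7. Such positions were picked for a high ESC value, so a lower RAW 264.7 value is partly a product of the choice. At 18466921, 741 kb below the middle, contact was 1.74 in ESC and 1.24 in RAW 264.7, which was 1.5 times or more in 13 of 48 widths in ESC and in 0 of 48 in RAW 264.7. The longest stretch of the flank without a fragment end begins next to it, with 6 positions from 18470921 to 18475921 empty in windows of 2 kb. At 18379921, 828 kb below the middle, ESC had 1.72 and RAW 264.7 had 1.29. In windows of 2 kb this position had 2.33 in ESC and 2.19 in RAW 264.7. The same pair of values recurred at other positions of the flank, such as 18285921 and 18369921. At 18960921, 247 kb below the middle, the values were 1.72 and 1.42. At 18725921, 482 kb below it, they were 1.66 and 1.51. None of these 4 differences reached 1.5-fold.

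The highest rise of RAW 264.7 in the flank was at 18539921, 668 kb below the middle. Its contact was 2.12 in RAW 264.7 and 1.34 in ESC, 1.58 times higher in RAW 264.7. It was the single local maximum of the flank to pass 2 times the far median in either library, where the higher flank had 1 in ESC and 2 in RAW 264.7. The other 4 RAW 264.7 rises without a listed counterpart were also lower in ESC, by less than 1.5-fold. These rises were picked for a high RAW 264.7 value, so a lower ESC value is partly a product of the choice. They were at 18743921, 464 kb below the middle, with 1.53 in RAW 264.7 against 1.18 in ESC, at 18572921, 635 kb below it, with 1.57 against 1.31, at 18983921, 224 kb below it, with 1.65 against 1.44, and at 18785921, 422 kb below it, with 1.54 against 1.47.

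**Figure D2:**
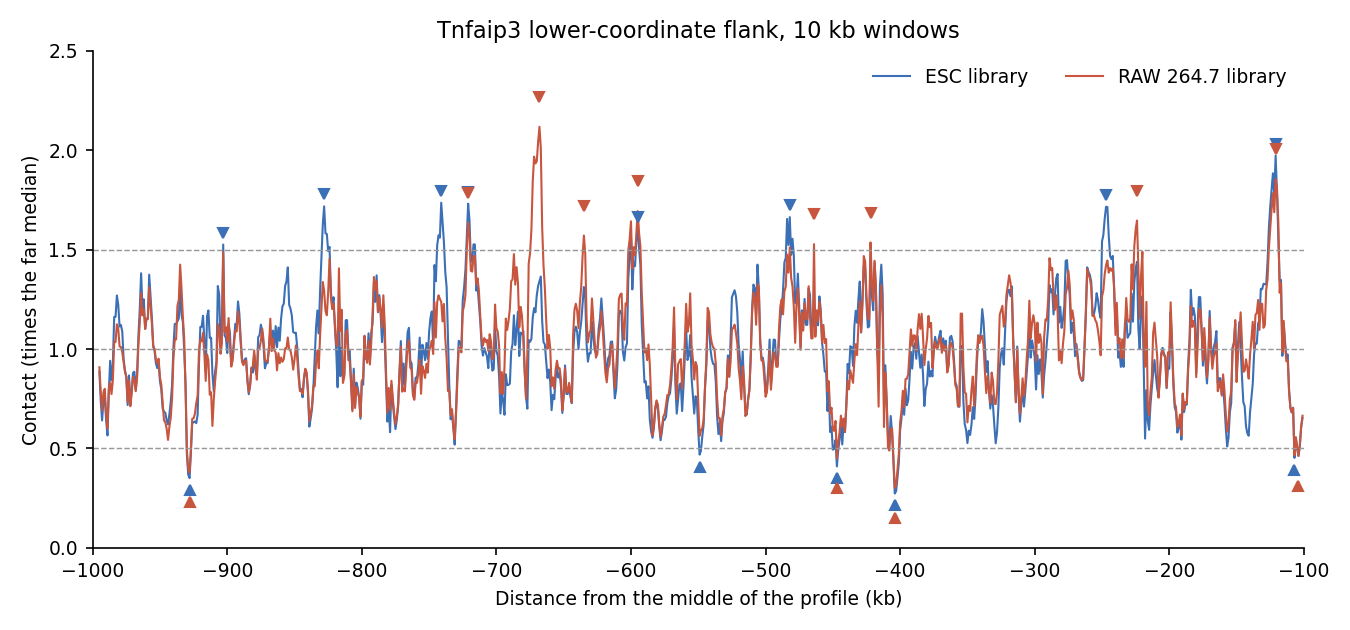
Contact over the far median in 10 kb windows along the flank, plotted by distance from the middle, for the ESC library (blue) and the RAW 264.7 library (red). Triangles, drawn slightly off the curves, mark the 8 local maxima of each library at 1.5 times or more and the 5 (ESC) and 4 (RAW 264.7) local minima at 0.5 times or less; the curves largely overlie, and the widest gap between them is the RAW 264.7 rise of 2.12 against 1.34 at 668 kb.

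By the rules used, more of the listed depressions of the flank than of its listed rises had a listed counterpart in the other library. In the whole profile 2.77% of positions in ESC and 1.76% in RAW 264.7 were at 0.5 times the far median or less, and in the flank 18 and 12 of 895 positions were. These formed 5 local minima in ESC and 4 in RAW 264.7, of which 4 and 4 had a counterpart within 10 kb. The deepest was at 18803921, 404 kb below the middle, with 0.273 in ESC and 0.302 in RAW 264.7. The next was at 18279921, 928 kb below it, with 0.351 and 0.379. At 18760921, 447 kb below it, the values were 0.409 and 0.451, and at 19100921, 107 kb below it, they were 0.453 and 0.465. Several of these minima lay where fragment ends are missing. Of the 9 windows of 2 kb inside each 10 kb window, 3 were empty at 18803921, 5 at 18279921 and 4 at 19100921, and 0 at 18760921. The part of this layout in the depressions was not tested.

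Position by position, the libraries were close in scale, and the differences of 1.5-fold that did occur were all higher in RAW 264.7. The median log2 ratio of RAW 264.7 over ESC was 0.018 (-0.015 with values as deposited), the central 50% of positions lay between -0.061 and 0.11, and the extremes were -0.52 and 0.73. In the whole profile 0.755% of positions were at least 1.5-fold higher in RAW 264.7 and 0.0503% at least 1.5-fold higher in ESC. In the flank the counts were 12 of 895 (1.34%) and 0 of 895. In the higher flank they were 1 of 895 and 0 of 895. At 2-fold the share was 0% in the whole profile in each direction. The 12 positions fell into 3 neighbourhoods, so they are not 12 separate differences.

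The longest of these runs surrounded the highest RAW 264.7 rise. It held 7 positions from 18533921 to 18539921, 668 to 674 kb below the middle. Contact there ran from 1.05 to 1.34 in ESC and from 1.60 to 2.12 in RAW 264.7, with means of 1.22 and 1.92, a 1.58-fold difference. None of the 9 windows of 2 kb inside its middle window was empty. A second run held 3 positions from 19064921 to 19066921, with a mean of 0.583 in ESC and 0.902 in RAW 264.7. Here both libraries were below the far median, so it was a shallower depression in RAW 264.7 and no rise. The remaining 2 positions, 18989921 and 18990921, held the highest ratio of the flank, with 0.549 in ESC and 0.911 in RAW 264.7 at 18989921. They are too few for a run by the rule used, and 4 of the 9 windows of 2 kb inside were empty. With values as deposited, scaled by the median of the whole profile, or with a pseudocount of 0.1 times the far median, 1 run was left, and the second run no longer held 3 positions past 1.5-fold. The run left was 7 positions long with the median of the whole profile as the scale and 3 long, from 18534921 to 18536921, with the other two, and the pseudocount left 6 of the 12 positions.

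**Figure D3:**
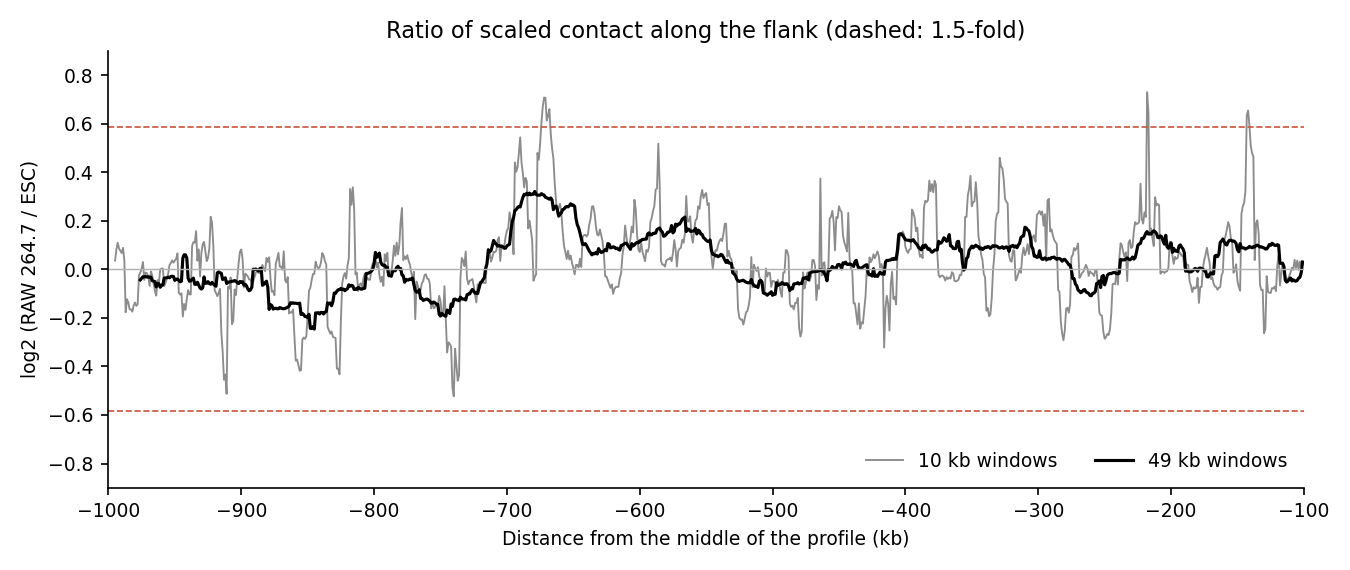
The log2 ratio of RAW 264.7 over ESC contact, each over its far median, along the flank by distance from the middle, in 10 kb windows (grey) and 49 kb windows (black); dashed lines mark 1.5-fold. The grey line crosses the upper dashed line at 3 places and the lower one at none, and the black line stays between -0.25 and 0.32.

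In finer windows the difference around 668 kb could be followed position by position. In the whole profile 12.5% of 2 kb windows were at least 1.5-fold higher in RAW 264.7 and 1.73% higher in ESC. Here 6 positions in a row from 18534921 to 18539921 passed 1.5-fold toward RAW 264.7, with a mean of 1.16 in ESC and 2.40 in RAW 264.7. Single windows had 1.05 in ESC and 2.98 in RAW 264.7 at 672 kb, 1.01 and 2.34 at 670 kb, and 1.59 and 3.21 at 668 kb. At 667 kb, the next position toward the middle, ESC had 2.45 and RAW 264.7 had 2.25, and at 666 kb they had 1.45 and 1.43. A single window at 664 kb was again past 1.5-fold, with 0.787 in ESC and 1.32 in RAW 264.7. In windows of 5 kb the same place held a run of 6 positions with means of 1.08 and 2.14. These windows also showed a second run nearby, of 5 positions from 18515921 to 18519921, 688 to 692 kb below the middle, with 0.873 in ESC and 1.5 in RAW 264.7. It was not among the runs in 10 kb windows. These 2 were the only runs of at least 3 positions past 1.5-fold in windows of 5 kb, in either direction. In the whole profile 2.34% of 5 kb windows were at least 1.5-fold higher in RAW 264.7 and 0.406% higher in ESC, and in the flank 23 and 1 of 894 were.

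Around 18539921, a position picked for its RAW 264.7 value, the ratio did not shrink steadily with window width. RAW 264.7 over ESC was 2.02 in windows of 2 kb and 1.61 at 3 kb, lay under 1.5 at each width from 4 to 9 kb, with 1.35 at 5 kb, and was 1.5 or more again from 10 to 16 kb, with 1.61 at 11 kb. It was under 1.5 at every wider window. RAW 264.7 was higher in 48 of 48 widths, which are nested windows and not separate measurements. With 5 kb windows the values were 1.62 in ESC and 2.19 in RAW 264.7, with 20 kb windows 1.03 and 1.45, and with 49 kb windows 0.970 and 1.18. In the widest windows ESC was thus near the far median, and RAW 264.7 was 1.22 times higher.

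**Figure D4:**
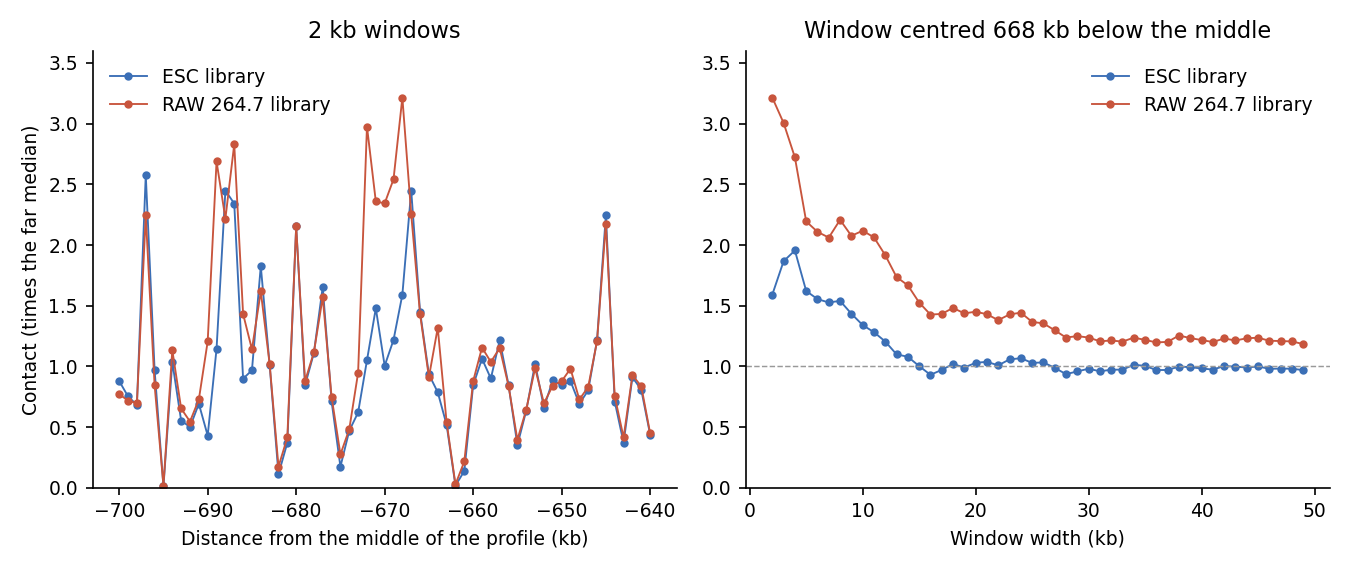
Contact over the far median around the highest RAW 264.7 rise of the flank, in 2 kb windows by distance from the middle (left) and in windows of 2 to 49 kb centred 668 kb below the middle (right), for ESC (blue) and RAW 264.7 (red). On the left the red points stand above the blue from 673 to 668 kb and also at single windows elsewhere, among them 690, 689, 686 and 664 kb; on the right RAW 264.7 is higher at every width, from 3.21 against 1.59 in 2 kb windows to 1.18 against 0.970 in 49 kb windows.

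At the broadest scale the largest difference of the flank was in this neighbourhood. The 49 kb windows there overlap the narrower runs, so this is not a separate measurement. In windows of 49 kb the log2 ratio ran from -0.25, at 18362921, to 0.32, at 18528921. In the whole profile 2.87% of these windows were at least 15% higher in RAW 264.7 and 0.205% at least 15% higher in ESC. The flank held 51 and 4 such positions of 876, and the higher flank 3 and 0 of 875. Of the 51, 48 formed 1 run from 18512921 to 18559921, 648 to 695 kb below the middle, averaging 0.986 in ESC and 1.19 in RAW 264.7. The 4 higher in ESC ran from 18359921 to 18362921, with means of 1.11 in ESC and 0.935 in RAW 264.7. At 20% the whole profile had 1.38% and 0%, the flank 27 and 0 positions, and the higher flank 0 and 0. Of those 27, 24 lay from 18518921 to 18541921. Each run is shorter than 1 window. In the higher flank the log2 ratios ran from -0.11 to 0.21. Both thresholds were chosen after the values were seen, 15% first.

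The likeness of the libraries across positions depended on width more in this flank than in the flanks it was set beside. Over 895 positions in 10 kb windows the Spearman coefficient was 0.887, and over 90 windows that do not overlap it was 0.887. It was 0.968 with 2 kb windows, 0.845 with 20 kb windows and 0.772 with 49 kb windows. In the higher flank the coefficient was 0.971, 0.940 and 0.946 with windows of 2, 20 and 49 kb. In the flanks of the Il1a profile, compared between ESC and peritoneal macrophages given KLA, it was 0.976, 0.927 and 0.921. Without the windows of 49 kb that touch the run at 668 to 674 kb, the coefficient of the flank was 0.823. These are descriptions across positions that share their fragment ends, library and overlapping windows, and the differences between coefficients were not tested.

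**Figure D5:**
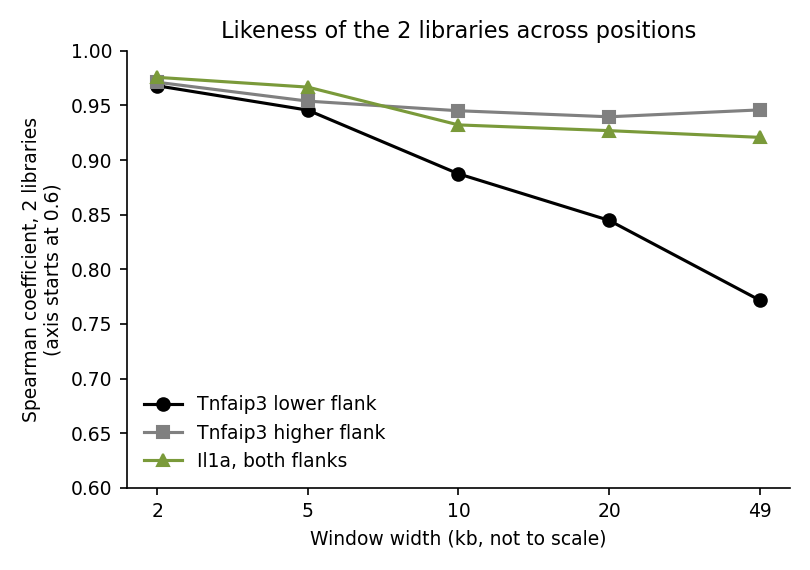
Spearman coefficient between the 2 libraries of a viewpoint across positions, by window width, for the lower Tnfaip3 flank (black), the higher Tnfaip3 flank (grey) and both Il1a flanks beyond 100 kb (green). The coefficients are alike in 2 kb windows, at 0.968, 0.971 and 0.976, where pairs of values recur across positions of the lower flank. In 49 kb windows the lower Tnfaip3 flank has 0.772 against 0.946 and 0.921.

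Against the Il1a flanks, contact in the lower Tnfaip3 flank covered a wider range in ESC. In 10 kb windows it ran from 0.273 to 1.97 in ESC, and in the Il1a flanks, with 1790 positions, from 0.393 to 1.84 in ESC. The higher Tnfaip3 flank had a still wider range in ESC, from 0.0156 to 2.51, so this is not particular to the lower flank. The Il1a flanks held 6 local maxima of 1.5 times or more in ESC and 2 in macrophages, over a length 2 times as great. They held 1 position at least 1.5-fold higher in macrophages and 0 higher in ESC. These 2 profiles differ in viewpoint and in macrophage source, so the values stand side by side only.

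The deposited bounds around each central value were wide in the flank. Their spread around the central value was typically 5.34-fold in ESC and 3.97-fold in RAW 264.7 for 10 kb windows, taken on signal plus a constant offset. The bounds of the 2 libraries overlapped at 895 of 895 positions after scaling. At 18539921 they ran from 0.140 to 8.66 in ESC and from 0.162 to 17 in RAW 264.7. Bounds this wide do not separate differences of the size seen here, and they are no error between libraries. Of the 2 kb windows, 58 held no fragment end (6.45%), in 31 stretches, and they were the same 58 in the 2 libraries. No window of 7 kb or more was empty in the flank.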

How the data were processed

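The authors deposited, per library, a profile of 2001 positions with 145 unnamed columns of contact signal. The submitters' processing notes name build mm9, CASAVA 1.4 and Bowtie2 2.0.1, and no source used here names the program that smoothed the profiles. Entries missing at either end grow by 1 per group of 3 columns, so the columns were taken as 48 widths (2 to 49 kb) of window, each with a central signal, an upper and a lower bound. Central and bounds obeyed a geometric mean with 1 offset per library, 0.0129 in ESC and 0.0180 in RAW 264.7 of the highest window, in 100% of 94483 windows to a tolerance of 1e-06. Windows at 0 were treated as holding no fragment end and left out.

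The deposited signal was divided by the far median of its library and width, with no pseudocount. Named regions are, per library, up to 6 local maxima (1.5 times or more, 20 kb apart) and up to 4 minima (0.5 times or less), and runs of at least 3 positions past 1.5-fold. The lowest 2 RAW 264.7 maxima, the 2 positions outside a run, single windows in 2 kb, the runs in 2 and 5 kb windows and the extremes in 49 kb windows were added after their values were seen. Members and rules were chosen with earlier results of these data known. Python 3.11.15 was used with SciPy 1.17.1, NumPy 2.4.6 and Matplotlib 3.10.9. On 1 pair of simulated profiles of 2001 positions, 100% of changed positions and 0 others were called. The pair shared its base values, without independent noise, and the planted changes were well past the threshold. It therefore checks only that the rules ran as written and gives no error rate for these libraries. Depth is unknown, so no interval was computed.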

Additional observations from a re-analysis of the deposited data

How the results depend on the processing

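Of 279 alternative values, 241 kept their direction and stayed within 1.5 times of the value above (0.1 for slopes, coefficients and median log2 ratios), 31 moved beyond that, and 7 turned direction while staying within it. Turned were the ratio of the lower to the higher flank in RAW 264.7 in windows of 5 kb, to 0.979 at 401 to 500 kb and 1.04 at 901 to 1000 kb, and in ESC at 901 to 1000 kb, to 0.984 at 20 kb and 0.996 at 49 kb. Also turned were the slope in ESC up to 500 kb (-0.0061), the slope in RAW 264.7 at 5 kb (0.0088) and the median log2 ratio with values as deposited (-0.015). The cause was not tested. Each group has 1 library and depth is unknown, so alternatives show dependence on processing only. No paired analysis was possible because each group has 1 library. Windows of 2 kb, the coefficients without the longest run and both 49 kb thresholds were chosen after seeing the data.

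Width moved most counts; the cause was not tested. Maxima (8 in each library) numbered 24 in ESC and 22 in RAW 264.7 in windows of 5 kb, 1 in each at 20 kb and 0 in each at 49 kb. With a threshold of 2-fold, which itself changes what is counted, they numbered 0 in ESC and 1 in RAW 264.7. Minima (5 in ESC and 4 in RAW 264.7) numbered 20 and 16 at 5 kb and 0 in each at 20 and 49 kb. Positions 1.5-fold higher in RAW 264.7 (12) numbered 107 in windows of 2 kb, 23 at 5 kb, 0 at 20 and 49 kb, 6 with a pseudocount of 0.1 times the far median and 0 at 2-fold. Positions higher in ESC (0) numbered 13 at 2 kb and 1 at 5 kb. Runs higher in RAW 264.7 (2) numbered 4 at 2 kb, 0 at 20 and 49 kb, 0 at 2-fold, and 1 with the pseudocount, with the median of the whole profile as the scale and with values as deposited. At 49 kb the Spearman coefficient was 0.772 and the Pearson coefficient of log2 contact 0.760, against 0.887 and 0.901 at 10 kb.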

Other observations

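In narrow windows the ratio of the libraries went with the level of contact. In 2 kb windows of the flank, the 280 positions with the lowest contact had a median log2 ratio of RAW 264.7 over ESC of 0.14, the 279 in the middle 0.0081 and the 282 with the highest -0.064. Of the 107 positions at least 1.5-fold higher in RAW 264.7 in these windows, 88 were among the 280 lowest, where the median contact was 0.437 in ESC and 0.493 in RAW 264.7. The same pairs of values recurred at higher contact, such as 0.844 in ESC with 0.878 in RAW 264.7, and 2.45 with 2.22. They also recurred among low positions, such as 0.0166 in ESC with 0.0258 in RAW 264.7, and 0.251 with 0.400. The 88 are therefore not 88 separate differences. The part of the repeated pairs in the trend with contact was not tested. The whole profile had 12.5% of its 2 kb windows at least 1.5-fold higher in RAW 264.7 and 1.73% higher in ESC, and the flank had 12.7% and 1.55%. In 10 kb windows the medians were 0.043, -0.014 and -0.016 in the same order, and of the 12 positions 4 were among the lowest and 7 among the highest. The offset was 0.0949 times the far median in ESC and 0.135 times in RAW 264.7, and its part in the ratios at low contact was not tested.

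The largest ratio in a single 2 kb window was at 18827921, 380 kb below the middle, with 0.0175 in ESC and 0.201 in RAW 264.7. Both values lay far below the far median. The largest ratio the other way was at 18443921, 764 kb below the middle, with 2.10 in ESC and 0.949 in RAW 264.7.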
